A study of Homo sapiens with 24 samples.

Results

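The lysosome and autophagy genes described here are 37 human genes listed by symbol. They were found in the deposited count table by their Ensembl identifiers with the version removed. The table has 60668 rows, of which 22158 had enough counts to be tested, and all 37 genes were among those tested. They fall into 7 roles: 5 lysosomal membrane proteins, 6 proteases or their partners, 9 glycosidases, 4 proteins of lipid handling, 4 parts of the proton pump (V-ATPase), 5 autophagy factors, and 4 genes of the MiT/TFE circuit (TFEB, TFE3, MITF and FLCN). Lysosomes are acid compartments in which hydrolases break down proteins, sugars and lipids, while autophagy delivers cytoplasmic material to them inside double-membraned vesicles. TFEB, TFE3 and MITF are related transcription factors that bind E-box sequences in the promoters of many lysosomal and autophagy genes. FLCN acts at the lysosome surface in the mTORC1 pathway that keeps these factors in the cytoplasm when nutrients are plentiful. MYC is also an E-box-binding factor and drives growth and biosynthesis.

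RNA was sequenced from MCF-10A, an immortalised, non-transformed human mammary epithelial line with wild-type genotype in the labels (called parental here). The other line was MCF-10A MYC-ER, which carries MYC fused to a receptor domain. That domain, the ligand-binding one of the oestrogen receptor, lets 4-hydroxytamoxifen (4-OHT) switch the fusion protein on. Both lines were grown in 3D on Matrigel and received 1 µM 4-OHT for 0, 8, 24 or 48 h, with treatment starting from day 3 and every culture collected on day 5. The parental cells allow the response to 4-OHT without the fusion to be subtracted. Each of the 8 groups has 3 replicate libraries, 24 in all. The labels do not say how many MYC-ER clones were used. Where replicates are not separate cultures the p-values measure only the spread between these libraries, which may be technical.

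Library totals ran from 136860029 to 182438505 counts. Levels are given as CPM, counts per 1000000 of the library total after scaling the libraries by TMM. Changes are log2 ratios from edgeR's quasi-likelihood F test, called where the Benjamini-Hochberg adjusted p over all 22158 genes was under 0.05. The smallest count behind any of the 37 genes was 268 (MITF at 8 h in MYC-ER). MYC, whose counts may include reads of the fusion, stood at 387 CPM in MYC-ER at 0 h and 795 CPM at 8 h. Parental cells had 532 and 463 CPM. At 24 h MYC was called lower than at 0 h in MYC-ER (-0.27), and at 48 h it was not called higher. Because 4-OHT acts on the fusion protein, the level of MYC RNA does not verify the labels. Of 10 epithelial markers, 9 were at 10 CPM or more in every library. The list also moved: 7 of the 10 were called higher in MYC-ER at each of 8, 24 and 48 h, with a median log2 change of 1.20 at 8 h, and 7 were lower than in parental cells at 0 h. Its summed level in MYC-ER was 14850 to 15340 CPM at 0 h and 16150 to 17950 CPM at 8 h. It was lower later, with 11300 to 11800 CPM at 24 h and 11110 to 11800 CPM at 48 h. Parental 0 h libraries held 24590 to 30620 CPM. Of 6 melanocyte markers, all stayed below 1 CPM and 4 (TYR, MLANA, TYRP1 and SOX10) were at 0 counts in every library. MITF and GPNMB are well known from melanocytes. Among 7 leukocyte markers CD163 and TYROBP were at 0 in every library, and among 7 fibroblast markers 4 stayed below 1 CPM. The summed leukocyte and fibroblast lists fell at 8 h, as did most of the genes described here. The summed leukocyte list, mostly CSF1R, was at 44.8 to 48.3 CPM in the MYC-ER 0 h libraries and 18.7 to 19.1 CPM at 8 h. The fibroblast list, mostly COL1A1 and DCN, was at 369.6 to 376.9 CPM and 101.7 to 109.4 CPM. At 48 h in MYC-ER the leukocyte list was at 38.8 to 41.0 CPM, whereas the fibroblast list was at 121.3 to 130.2 CPM. The 5 endothelial markers summed to 0.0928 to 0.249 CPM at 0 h and 2.18 to 2.73 CPM at 8 h. Their part in the results was not tested. In bulk RNA, fewer cells of a type and less RNA per cell cannot be told apart. Parental 0 h replicate 2 stood apart from the other parental 0 h libraries for many of the 37 genes. Their summed level was 4945 CPM there and 5689 and 5636 CPM in replicates 1 and 3. Counts of parental calls are given below with and without it, and so are single parental and 0 h values where leaving it out changes a call or moves a called value by over 1.5 times.

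Because MiT/TFE factors and MYC both recognise the E-box CACGTG, the 250 bases before the RefSeq start site (GRCh38.p14) are shown for genes that carry this motif and changed differently. RefSeq promoter windows, 250 bases before to 50 bases after the start, matched 29 of the 37 genes. CACGTG, searched on both strands, was found for 7 of these 29 genes (24.1%) and in 7.26% of all 35116 windows. The 7 were LAMP1, MCOLN1, CTSA, CTSD, NEU1, GAA and ATP6V0D1. Shares of the 29 count genes with a match in any of their windows, and shares of all count single windows. NPC2 had 2 windows and SQSTM1, TFEB and MITF had 3 each, which gives a gene more chances of a match. The longer TCACGTG, part of the so-called CLEAR element of lysosomal genes, was in the same 7 and in 3.71% of all windows, and its palindrome TCACGTGA in 5 of 29 and in 0.98%. TCACATG, a form bound by MITF, was in GPNMB and TPP1 (6.9% of 29, 3.36% of all), and the forkhead motif GTAAACA was in CTSL alone (3.42% of all). These motifs overlap one another by construction, and a match describes letters, not a bound site. In the sequences, capitals mark TCACGTG or TCACATG on either strand and the last A of TCACGTGA. GAA, NEU1 and CTSA, the first 3, fell at 8 h of 4-OHT in MYC-ER cells. LAMP1 and MCOLN1 were not called lower at 8 h, and GPNMB carries the MITF form and fell most at 24 h. The windows are chr17:80101331-80101580, plus strand (GAA), chr6:31862822-31863071, minus strand (NEU1), chr20:45891085-45891334, plus strand (CTSA), chr13:113296989-113297238, plus strand (LAMP1), chr19:7522374-7522623, plus strand (MCOLN1) and chr7:23246525-23246774, plus strand (GPNMB).
GAA: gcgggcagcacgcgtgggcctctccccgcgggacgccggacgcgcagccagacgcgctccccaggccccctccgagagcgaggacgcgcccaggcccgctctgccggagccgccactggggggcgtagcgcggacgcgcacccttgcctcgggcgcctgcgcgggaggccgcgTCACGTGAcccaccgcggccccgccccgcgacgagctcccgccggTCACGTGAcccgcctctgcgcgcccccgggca
NEU1: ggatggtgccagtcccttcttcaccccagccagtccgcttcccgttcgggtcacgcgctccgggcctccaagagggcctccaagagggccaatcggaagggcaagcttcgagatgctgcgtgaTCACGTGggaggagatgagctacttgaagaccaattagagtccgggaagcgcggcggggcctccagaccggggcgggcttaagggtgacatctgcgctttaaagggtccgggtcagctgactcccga
CTSA: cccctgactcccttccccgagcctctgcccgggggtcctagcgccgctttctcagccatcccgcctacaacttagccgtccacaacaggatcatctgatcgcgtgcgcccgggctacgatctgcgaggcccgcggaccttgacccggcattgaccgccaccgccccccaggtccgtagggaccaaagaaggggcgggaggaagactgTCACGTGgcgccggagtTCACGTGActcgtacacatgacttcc
LAMP1: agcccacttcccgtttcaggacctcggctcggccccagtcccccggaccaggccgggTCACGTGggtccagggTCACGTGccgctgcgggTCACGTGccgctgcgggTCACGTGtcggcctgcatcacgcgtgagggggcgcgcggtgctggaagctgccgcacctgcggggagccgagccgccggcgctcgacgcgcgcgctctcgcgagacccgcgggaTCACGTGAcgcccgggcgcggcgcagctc
MCOLN1: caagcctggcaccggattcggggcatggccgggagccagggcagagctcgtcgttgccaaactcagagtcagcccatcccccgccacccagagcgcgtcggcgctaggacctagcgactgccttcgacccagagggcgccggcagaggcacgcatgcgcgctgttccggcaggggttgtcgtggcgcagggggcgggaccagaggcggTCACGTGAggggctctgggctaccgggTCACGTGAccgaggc
GPNMB: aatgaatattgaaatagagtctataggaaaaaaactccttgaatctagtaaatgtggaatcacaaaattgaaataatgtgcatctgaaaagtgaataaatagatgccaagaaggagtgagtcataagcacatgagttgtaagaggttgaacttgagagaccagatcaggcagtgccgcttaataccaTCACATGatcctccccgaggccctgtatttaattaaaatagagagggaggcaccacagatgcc
LAMP1 held 5 E-boxes in the 250 bases shown and 6 in its whole window, the other one running across the start site, while GAA, CTSA and MCOLN1 held 2 and NEU1 1. The windows of GABARAPL1 and ULK1, the genes that fell most at 8 h, held none of the motifs searched.

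At 8 h after 4-OHT, MYC-ER cells had less RNA for most of these genes, and the autophagy factors GABARAPL1, ULK1 and WIPI1 fell furthest. Of the 37 genes, 26 were called lower and 7 higher at 8 h, where 35.4% and 32.2% of all genes tested were called. At 24 h, 30 were lower and 4 higher, against 31.2% and 30.4% of all genes. At 48 h, 17 were lower and 5 higher, against 20.7% and 23.4%. The 3 comparisons share the MYC-ER 0 h libraries. At 8 h the scaling decided a few small changes. With library totals alone TFE3 (-0.14), MCOLN1 (-0.24) and CTSB (-0.21) were called lower as well, and the rises of LAMP1 (0.06) and NPC1 (0.12) did not pass. With upper quartile scaling the rise of FUCA1 (0.27) did not pass either. A fall of at least 2-fold was called for 12 of the 37 genes at 8 h (19.6% of all genes tested), for 9 at 24 h (12.2%) and for 2, WIPI1 and GPNMB, at 48 h (2.85%). The median log2 changes of the 37 genes at the 3 times were -0.65, -0.60 and -0.15. Those of all genes tested were -0.10, -0.02 and 0.03. At 48 h the split rests on the scaling. With library totals alone, which moved the median of all genes by 0.16, 11 were lower and 12 higher. With upper quartile scaling 14 were lower and 7 higher. The median of the 37 relative to that of all genes was -0.18 under all 3 scalings. A scaling shifts all genes nearly alike, so this value could hardly move with it. It was -0.13 where only genes with at least 10 counts in every library were fitted. With the GC and length trends removed it was -0.15.

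**Figure D1:**
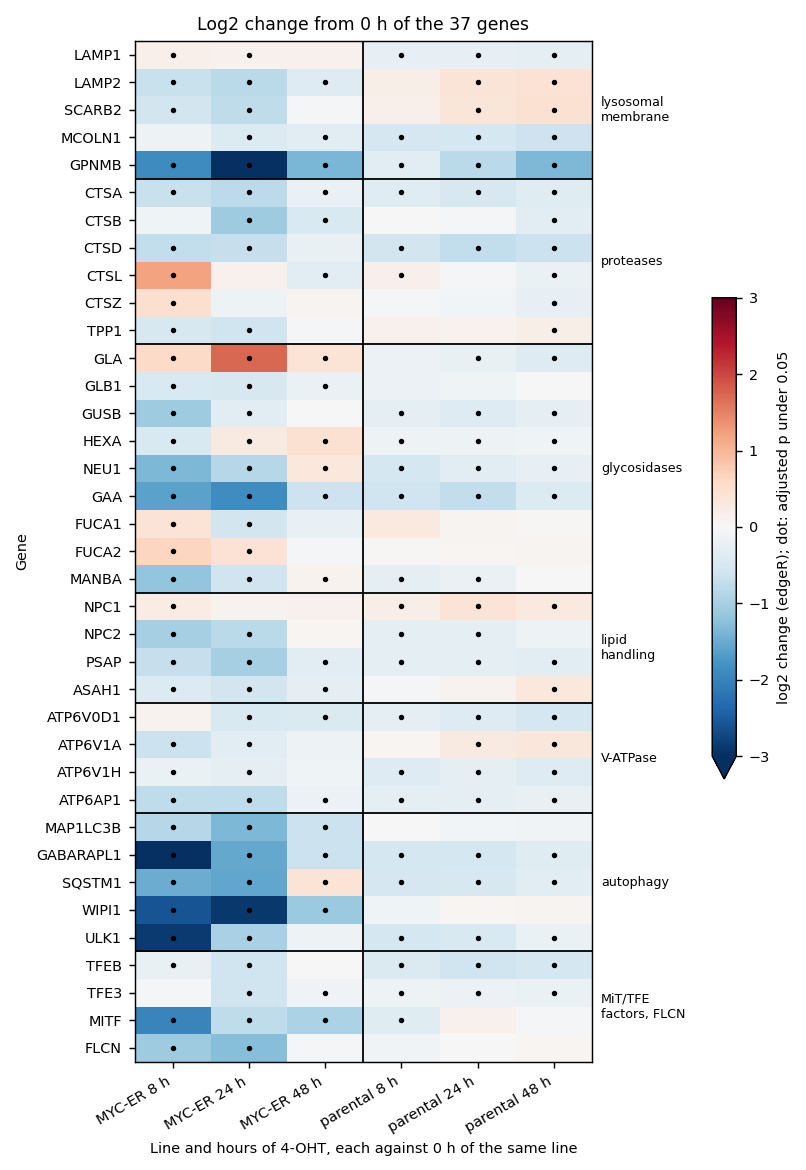
Log2 change of each of the 37 genes (rows, grouped by role) at 8, 24 and 48 h of 4-OHT against 0 h of the same line (columns: MYC-ER left, parental right); colour gives the log2 change, with values under -3 at the end of the scale, and a dot marks an edgeR adjusted p under 0.05. The MYC-ER columns hold the deepest falls, in the autophagy rows at 8 h and in GPNMB at 24 h (-4.42), while no parental change went below -1.35.

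All 5 autophagy factors fell at 8 h and at 24 h in MYC-ER cells, with a median log2 change of -2.60 and -1.53. GABARAPL1 (ENSG00000139112.11, chr12:10212877-10223128), an ATG8-family protein that is attached to autophagosome membranes, stood at 68.2, 67.1 and 67.3 CPM in the 3 MYC-ER 0 h libraries and at 5.87, 5.72 and 5.54 CPM at 8 h. Every 8 h library was far below every 0 h library, a log2 change of -3.56 ± 0.058 (SE, edgeR adjusted p = 2.83e-21). It then rose again, to 22.8, 23.6 and 23.7 CPM at 24 h. At 48 h it was at 41.9, 44.4 and 43.3 CPM, where it was still lower than at 0 h (-0.64, edgeR adjusted p = 1.24e-09). Parental cells held 29.02, 27.6 and 28.3 CPM at 0 h and 20.8, 19.4 and 18.7 CPM at 8 h, a smaller fall of -0.53 ± 0.053 (SE, edgeR adjusted p = 5.26e-07). ULK1 (ENSG00000177169.10, chr12:131894622-131923150), the kinase that starts autophagy, took the same course. It stood at 137, 127 and 132 CPM at 0 h and 16.7, 17.4 and 20.1 CPM at 8 h. It was back at 62.9, 69.3 and 67.9 CPM at 24 h and 120.5, 118 and 119 CPM at 48 h. Its change was -2.86 ± 0.067 (SE, edgeR adjusted p = 3.26e-19) at 8 h, and -0.15 at 48 h, which did not pass the threshold (edgeR adjusted p = 0.0565). In parental cells ULK1 went from 60.7, 54.98 and 56.1 CPM to 38.3, 39.9 and 40.6 CPM at 8 h (-0.53 ± 0.062 SE, edgeR adjusted p = 3.77e-06).

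WIPI1 (ENSG00000070540.13, chr17:68421281-68457496), which binds the lipid that marks forming autophagosomes, fell from 16.97, 17.4 and 17.9 CPM at 0 h to 2.80, 2.55 and 3.27 CPM at 8 h. It was at 1.99, 2.35 and 2.69 CPM at 24 h and at 8.56, 7.57 and 7.85 CPM at 48 h. Unlike GABARAPL1 and ULK1 it did not recover from 8 to 24 h. A small further drop was called (-0.30 ± 0.11 SE, edgeR adjusted p = 0.0301), but the libraries of the 2 times overlap. The call was lost without MYC-ER 8 h replicate 3 or 24 h replicate 1 or 2 (edgeR adjusted p = 0.191, 0.181 and 0.0622). Its changes from 0 h were -2.60 ± 0.12 (SE, edgeR adjusted p = 1.27e-14) at 8 h, -2.90 ± 0.12 (SE, edgeR adjusted p = 2.94e-15) at 24 h and -1.12 ± 0.11 (SE, edgeR adjusted p = 2.27e-08) at 48 h. No parental change of WIPI1 passed the threshold: its parental means were 8.45, 7.74, 8.80 and 8.90 CPM from 0 to 48 h. WIPI1 shares 28.5% of its exonic bases with ARSG on the opposite strand, and whether the counting used strand is not given in the sources used here. ARSG itself stood at 1.68 CPM at 0 h and 1.83 CPM at 8 h, and was called lower at 48 h (-0.40, edgeR adjusted p = 0.03).

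SQSTM1, the receptor p62 that links tagged cargo to autophagosomes, turned from lower to higher. It stood at 953, 930 and 959.8 CPM at 0 h, 345, 333 and 342 CPM at 8 h and 322, 319.6 and 317 CPM at 24 h. It was then at 1264, 1258 and 1237 CPM at 48 h, above every 0 h library. The changes were -1.48 ± 0.057 (SE, edgeR adjusted p = 1.07e-15) at 8 h, -1.57 ± 0.057 (SE, edgeR adjusted p = 4.43e-16) at 24 h and 0.40 ± 0.056 (SE, edgeR adjusted p = 3.61e-06) at 48 h. In parental cells SQSTM1 was at 649, 523 and 601 CPM at 0 h and 464, 488 and 482 CPM at 48 h, a fall of -0.31 ± 0.056 (SE, edgeR adjusted p = 0.000185), so the called directions were opposite at that time. With each library's trend with GC content removed, the parental change was -0.07 and did not pass (edgeR adjusted p = 0.168). SQSTM1 shares 39.8% of its exonic bases with MRNIP on the other strand, which did not pass the threshold at any time (57.2 CPM at 0 h and 52.0 CPM at 8 h). MAP1LC3B, the ATG8-family protein LC3B, fell in MYC-ER from a mean of 109 ± 0.38 to 59.9 ± 1.2 CPM at 8 h and 43.2 ± 0.96 CPM at 24 h (SD, n = 3), and was at 70.1 ± 0.95 CPM at 48 h. Its log2 changes were -0.86, -1.34 and -0.64, all called, while the parental changes of 0.01, -0.08 and -0.11 did not pass. GABARAPL1 and MAP1LC3B have near-identical copies elsewhere in the genome. How reads matching several genes were counted is not given in the sources used here, so their levels are uncertain to that extent.

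**Figure D2:**
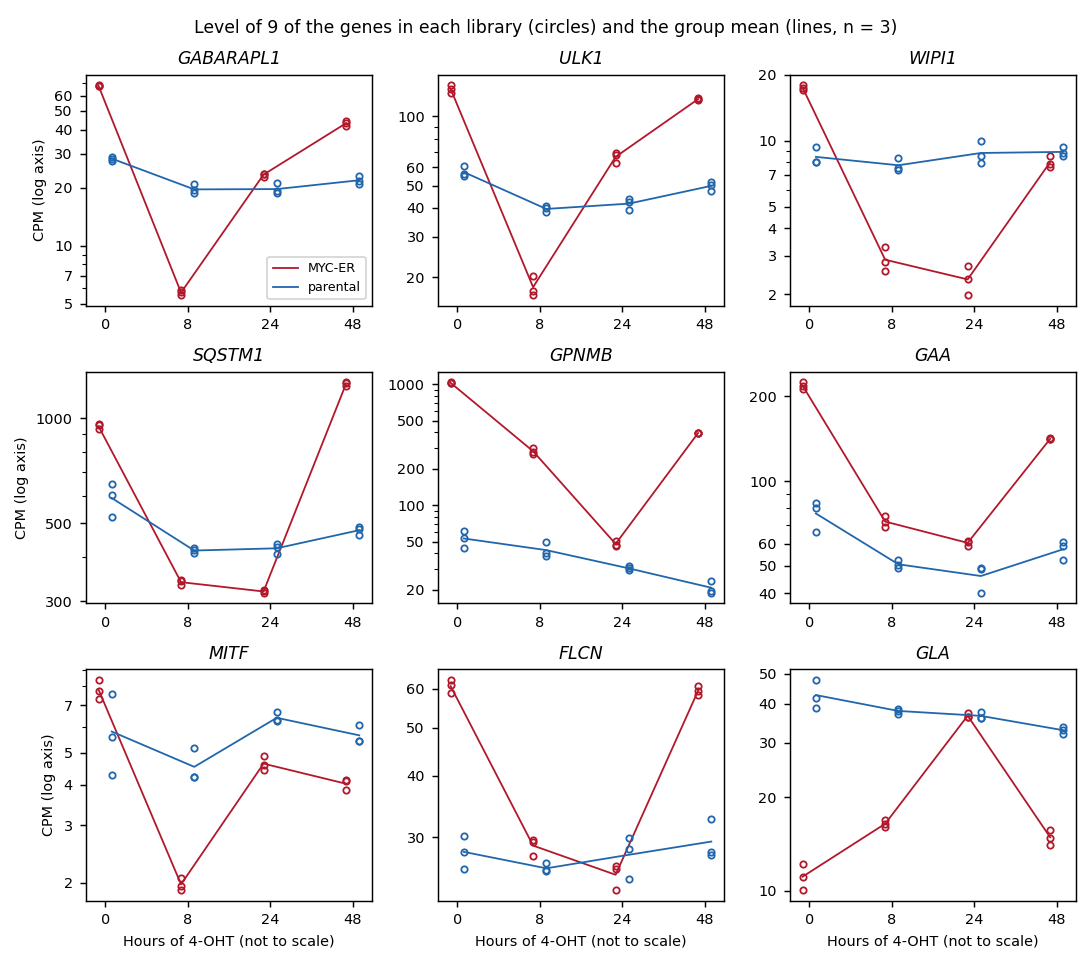
CPM (log axis) of 9 of the genes at 0, 8, 24 and 48 h of 4-OHT (spaced evenly, not to scale); each circle is 1 library and the lines join group means (n = 3), red for MYC-ER and blue for parental. In 8 of the 9 panels the MYC-ER mean is below its 0 h value at 8 and 24 h, with GABARAPL1 and ULK1 lowest at 8 h and WIPI1, SQSTM1, GPNMB, GAA and FLCN lowest at 24 h, whereas GLA is highest at 24 h.

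Of the MiT/TFE circuit, all 4 genes fell at 24 h and 3 at 8 h in MYC-ER. MITF (ENSG00000187098.15, chr3:69739464-69968332) was lowest at 8 h. It stood at 8.36, 7.76 and 7.32 CPM at 0 h and 1.96, 1.90 and 2.08 CPM at 8 h. It was at 4.59, 4.44 and 4.88 CPM at 24 h and 3.84, 4.12 and 4.11 CPM at 48 h. All treated libraries were below all 0 h libraries, with log2 changes of -1.98 ± 0.14 (SE, edgeR adjusted p = 4.08e-11) at 8 h, -0.75 at 24 h and -0.96 at 48 h. Parental MITF varied from 4.28 to 7.56 CPM at 0 h and was 4.20 to 5.16 CPM at 8 h, a change of -0.36 (edgeR adjusted p = 0.049). It was -0.12 without parental 0 h replicate 2 and then did not pass (edgeR adjusted p = 0.417). FLCN stood at 62.5, 58.7 and 60.98 CPM at 0 h and 27.5, 29.4 and 29.6 CPM at 8 h. It was at 23.4, 26.3 and 25.8 CPM at 24 h and 58.1, 59.2 and 60.9 CPM at 48 h. It fell by more than 2-fold at 8 and 24 h (-1.07 ± 0.073 SE, edgeR adjusted p = 1.8e-11 and -1.27 ± 0.073 SE, edgeR adjusted p = 1.4e-12). At 48 h its libraries overlapped those of 0 h (-0.03, interval -0.17 to 0.11). The fallen FLCN level was close to the parental one, which stayed between group means of 25.9 and 29.4 CPM with no change called. FLCN shares 27.8% of its exonic bases with AC055811.2 on the same strand, which was at 0.273 CPM at 0 h and 0.193 CPM at 8 h.

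TFEB and TFE3, the members of the circuit best known as activators of lysosomal genes, moved less. TFEB was at 35.1, 33.9 and 33.1 CPM at 0 h and 29.9, 27.4 and 30.8 CPM at 8 h. Later it was at 22.7, 22.4 and 22.3 CPM at 24 h and 33.3, 34.5 and 33.4 CPM at 48 h. Its fall at 8 h was small (-0.21 ± 0.068 SE, edgeR adjusted p = 0.00859) and did not pass without MYC-ER 8 h replicate 2 (-0.16, edgeR adjusted p = 0.061). At 24 h the change was -0.60 ± 0.068 (SE, edgeR adjusted p = 9.67e-08). Parental TFEB fell as much, from 40.8, 32.4 and 41.4 CPM at 0 h to 24.5, 24.99 and 25.97 CPM at 24 h (-0.60 ± 0.068 SE, edgeR adjusted p = 1.44e-06). The difference between the lines at 24 h was 0.00 (interval -0.18 to 0.19). With each library's GC trend removed this difference was -0.18 and passed the threshold. It was also negative and passed with GC and length trends removed. TFE3 stood at 69.1, 69.9 and 70.1 CPM at 0 h and 68.8, 65.1 and 68.7 CPM at 8 h. Later it was at 44.6, 46.97 and 46.5 CPM at 24 h and 64.5, 63.4 and 65.4 CPM at 48 h. At 8 h its change of -0.04 did not pass (edgeR adjusted p = 0.309), and at 24 h it was -0.60 ± 0.039 (SE, edgeR adjusted p = 1.1e-11). At 8 h the log2 changes of GABARAPL1, ULK1 and WIPI1 were -3.56, -2.86 and -2.60. Those of MITF and TFEB were -1.98 and -0.21, and that of TFE3 was not called. Whether these changes are linked was not tested. The RNA level says nothing of where the MiT/TFE proteins were in the cell. Per kilobase of exon, MYC-ER cells at 0 h had 20.4 CPM of TFE3, 7.62 of TFEB and 1.28 of MITF, the lowest of the 37 genes. At the other end of this scale were PSAP at 367, CTSD at 343, SQSTM1 at 273 and GPNMB at 259 CPM per kilobase.

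Lysosomal membrane genes split. GPNMB (ENSG00000136235.16, chr7:23246775-23275108), a glycoprotein of lysosomes and melanosomes and a known MiT/TFE target, fell further than any other of the 37 genes at 24 h. It stood at 1021, 1033 and 1028 CPM at 0 h and 267, 275 and 296 CPM at 8 h. It was at 46.2, 47.1 and 50.6 CPM at 24 h and 392, 395 and 399 CPM at 48 h. The groups did not overlap. The changes were -1.88 ± 0.10 (SE, edgeR adjusted p = 5.12e-13) at 8 h, -4.42 ± 0.12 (SE, edgeR adjusted p = 1.68e-18) at 24 h and -1.38 ± 0.10 (SE, edgeR adjusted p = 3.18e-10) at 48 h. Parental cells had far less GPNMB, 53.8, 61.8 and 44.02 CPM at 0 h and 23.9, 19.6 and 19.01 CPM at 48 h, and it fell there too (-1.35 ± 0.10 SE, edgeR adjusted p = 7.21e-08). The parental 8 h change of -0.32 was -0.20 and not past the threshold without parental 0 h replicate 2. At 24 h the MYC-ER level had come down to within 2-fold of the parental one, 47.96 against 30.1 CPM. At 48 h the changes from 0 h did not differ detectably between the lines (-0.03, interval -0.31 to 0.26).

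LAMP2 and SCARB2, abundant membrane proteins of which SCARB2 carries the enzyme glucocerebrosidase to lysosomes, fell in MYC-ER and rose in parental cells. LAMP2 was at 204, 217 and 207 CPM in MYC-ER at 0 h and 127, 113 and 118 CPM at 24 h (-0.81 ± 0.07 SE, edgeR adjusted p = 1.13e-09). It was at 137, 174 and 137 CPM in parental cells at 0 h and 196, 189 and 203 CPM at 24 h (0.39 ± 0.069 SE, edgeR adjusted p = 0.000119). SCARB2 was at 199.7, 209 and 203 CPM and 128, 116 and 116 CPM in MYC-ER at 0 and 24 h (-0.77 ± 0.067 SE, edgeR adjusted p = 1.5e-09). It was at 118, 148 and 119 CPM and 163, 162 and 168 CPM in parental cells (0.36 ± 0.067 SE, edgeR adjusted p = 0.000198). For both genes, MYC-ER libraries were above all parental libraries at 0 h and below them all at 24 h. The parental rises shrank to 0.03 for LAMP2 and, with length also removed, 0.01 for SCARB2 when each library's trend with GC content was removed. They then did not pass (edgeR adjusted p = 0.529 and 0.921). At 48 h LAMP2 was still lower in MYC-ER (-0.38) and SCARB2 was not (-0.04, edgeR adjusted p = 0.652). LAMP1, the paralogue of LAMP2, went the other way by a small amount. It was at 168, 162 and 167 CPM at 0 h and 187, 176 and 186 CPM at 8 h in MYC-ER (0.15 ± 0.05 SE, edgeR adjusted p = 0.0143). Leaving out MYC-ER 0 h replicate 2 or 8 h replicate 1 ended that call (edgeR adjusted p = 0.052 and 0.0544), as did scaling by library totals alone or upper quartile. The 24 h call (0.13) was lost without any of MYC-ER 0 h replicates 1, 2 and 3 or 24 h replicates 1 and 2 (edgeR adjusted p = 0.0512 to 0.106). In parental cells LAMP1 fell from 295, 258 and 279.7 CPM to 237, 236 and 235 CPM at 8 h (-0.24 ± 0.05 SE, edgeR adjusted p = 0.00135). MCOLN1, the calcium channel TRPML1, did not pass at 8 h in MYC-ER (-0.15, edgeR adjusted p = 0.0974). It fell at 24 h (-0.42) and 48 h (-0.31), and in parental cells it fell at all 3 times (-0.50, -0.53 and -0.62).

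Among the proteases, CTSL rose at 8 h while CTSA, CTSD and TPP1 fell. CTSL, the cysteine protease cathepsin L, went from 85.6, 91.5 and 87.5 CPM at 0 h to 212, 191 and 203 CPM at 8 h in MYC-ER (1.20 ± 0.058 SE, edgeR adjusted p = 4.93e-14), the only rise of 2-fold or more among the 37 genes at that time. It was back at 99.6, 93.1 and 96.9 CPM at 24 h (0.13, edgeR adjusted p = 0.0539) and lower than at 0 h at 48 h, with 70.3, 68.8 and 72.5 CPM (-0.32 ± 0.057 SE, edgeR adjusted p = 8.31e-05). Parental CTSL moved little, from 119, 112 and 135 CPM at 0 h to 136, 134 and 138 CPM at 8 h (0.15, edgeR adjusted p = 0.045), a call that was lost without parental 0 h replicate 2 (0.10, edgeR adjusted p = 0.175). CTSZ, another cathepsin, also rose at 8 h, from a mean of 83.97 ± 2.7 to 118 ± 4.9 CPM (SD, n = 3), by 0.49 on the log2 scale, with no call at 24 or 48 h. CTSB, cathepsin B, was late: its change of -0.12 at 8 h did not pass (edgeR adjusted p = 0.0512). At 24 h it had fallen from 341, 347 and 351 CPM to 166, 164 and 162 CPM (-1.08 ± 0.055 SE, edgeR adjusted p = 1.83e-13), while the parental change was -0.03 (interval -0.13 to 0.08). CTSD, the aspartic protease cathepsin D, fell at 8 and 24 h in both lines, with changes of -0.75 and -0.70 in MYC-ER and -0.54 and -0.73 in parental cells. The difference between the lines in these changes passed at neither time (edgeR adjusted p = 0.218 and 0.884). With each library's GC trend removed it was -0.50 at 8 h and passed (edgeR adjusted p = 2.3e-05). At 24 h it then turned negative and passed as well. CTSD shares 54.9% of its exonic bases with AC068580.4 on the same strand, so reads there cannot be told apart. AC068580.4 was at 6.34 CPM at 0 h and 7.26 CPM at 8 h, with no call at 8 or 24 h, and was called higher at 48 h (0.61, edgeR adjusted p = 0.00507). CTSA, which protects NEU1 and the galactosidase GLB1, and TPP1, a tripeptidyl peptidase, fell at 8 h, with changes of -0.67 and -0.49, and at 24 h, with -0.79 and -0.59.

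The 9 glycosidases, which cut sugars from glycogen, glycolipids and glycoproteins, split 6 lower to 3 higher at both 8 and 24 h. GAA (ENSG00000171298.13, chr17:80101581-80119881), the acid glucosidase that degrades glycogen in lysosomes and whose promoter above holds 2 E-boxes, fell from 224, 212 and 218 CPM at 0 h to 71.4, 68.6 and 75.5 CPM at 8 h. It was at 58.99, 60.5 and 61.5 CPM at 24 h and at 141, 141 and 143 CPM at 48 h. The changes were -1.60 ± 0.079 (SE, edgeR adjusted p = 7.12e-14), -1.85 ± 0.08 (SE, edgeR adjusted p = 8.43e-15) and -0.63 ± 0.077 (SE, edgeR adjusted p = 7.46e-07). Parental GAA fell from 83.8, 66.1 and 80.3 CPM at 0 h to 52.3, 50.4 and 49.3 CPM at 8 h (-0.60 ± 0.078 SE, edgeR adjusted p = 1.18e-05) and 48.9, 40.2 and 49.01 CPM at 24 h. NEU1, the sialidase, went down and came back above its start. It stood at 47.2, 48.2 and 48.3 CPM at 0 h and 19.5, 18.2 and 18.5 CPM at 8 h. Later it was at 26.6, 26.4 and 26.4 CPM at 24 h and 61.5, 59.5 and 58.1 CPM at 48 h. It fell at 8 h (-1.35 ± 0.056 SE, edgeR adjusted p = 4.01e-15) and 24 h (-0.86) and was higher than at 0 h at 48 h (0.32 ± 0.055 SE, edgeR adjusted p = 6.1e-05). Parental NEU1 was then still lower (-0.25, 32.7, 33.1 and 33.2 CPM against 40.8, 34.6 and 42.7 CPM). HEXA, a subunit of the hexosaminidase that degrades gangliosides, did the same sooner. It stood at 56.5, 56.8 and 56.4 CPM at 0 h and 41.5, 39.6 and 42.1 CPM at 8 h. Later it was at 66.8, 69.1 and 67.8 CPM at 24 h and 78.6, 76.1 and 77.3 CPM at 48 h. Its changes were -0.46 ± 0.038 (SE, edgeR adjusted p = 3.74e-10), 0.26 ± 0.037 (SE, edgeR adjusted p = 2.38e-06) and 0.45 ± 0.037 (SE, edgeR adjusted p = 1.87e-09), while parental HEXA was slightly lower at all 3 times (-0.16, -0.15 and -0.13).

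GLA, the galactosidase deficient in Fabry disease, was the exception with the largest rise. MYC-ER libraries held 10.1, 12.2 and 11.1 CPM at 0 h and 16.4, 16.01 and 16.9 CPM at 8 h. They held 37.4, 36.2 and 36.3 CPM at 24 h and 15.7, 14.8 and 14.02 CPM at 48 h. The changes were 0.57 ± 0.07 (SE, edgeR adjusted p = 2.63e-07), 1.72 ± 0.071 (SE, edgeR adjusted p = 3.71e-15) and 0.42 ± 0.07 (SE, edgeR adjusted p = 3.57e-05). Parental cells held 41.6, 38.7 and 47.7 CPM at 0 h and 35.9, 37.8 and 36.1 CPM at 24 h. The lines overlapped at 24 h and at no other time, with MYC-ER below parental elsewhere. MANBA, the lysosomal mannosidase, fell from 42.5, 43.5 and 43.5 CPM at 0 h to 19.1, 19.5 and 18.2 CPM at 8 h (-1.19 ± 0.041 SE, edgeR adjusted p = 1.97e-16). It was at 28.7, 28.5 and 28.4 CPM at 24 h and 46.1, 45.1 and 47.8 CPM at 48 h, a small rise of 0.10 (edgeR adjusted p = 0.0455). That call was lost without any of MYC-ER 0 h replicates 1, 2 and 3 or 48 h replicates 1 and 3 (edgeR adjusted p = 0.085 to 0.204). GUSB, the glucuronidase, fell to 22.03, 20.1 and 21.97 CPM at 8 h from 45.7, 44.6 and 43.95 CPM (-1.07 ± 0.068 SE, edgeR adjusted p = 5.5e-12) and was back at a mean of 45.03 CPM at 48 h. GUSB is often used as a reference gene in PCR and has near-identical partial copies. GLB1, the beta-galactosidase, fell at all 3 times (-0.46, -0.47 and -0.21). The 48 h call was lost without MYC-ER 0 h replicate 2 or 3 or 48 h replicate 2 or 3 (edgeR adjusted p = 0.0671 to 0.108). FUCA1 and FUCA2, the fucosidases, rose at 8 h (0.40 and 0.63). They parted at 24 h, when FUCA2 was still higher (0.44 ± 0.05 SE, edgeR adjusted p = 1.03e-07) and FUCA1 was lower (-0.56 ± 0.12 SE, edgeR adjusted p = 0.000299). FUCA1 was at 5.30, 5.67 and 5.20 CPM at 0 h, 7.11, 6.75 and 7.56 CPM at 8 h and 3.84, 3.57 and 3.58 CPM at 24 h.

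Of the lipid-handling genes, NPC2, PSAP and ASAH1 fell at 8 and 24 h in MYC-ER, and NPC1 rose at 8 h. NPC2, the soluble cholesterol carrier, fell from 92.3 ± 2.2 to 46.1 ± 1.1 CPM at 8 h (-1.003 ± 0.076 SE, edgeR adjusted p = 1.08e-10). Its membrane partner NPC1 rose from 63.9 ± 2.7 to 74.2 ± 1.8 CPM (SD, n = 3; 0.22 ± 0.053 SE, edgeR adjusted p = 0.00116). Parental NPC1 rose too, at all 3 times (0.18, 0.42 and 0.28). PSAP, the precursor of the saposins that help hydrolases act on sphingolipids, fell from 1058 ± 14 to 529 ± 7.041 CPM at 24 h (-1.001 ± 0.06 SE, edgeR adjusted p = 2.38e-12). ASAH1, acid ceramidase, was at 82.6, 84.4 and 84.4 CPM at 0 h and 66.5, 70.4 and 66.7 CPM at 48 h in MYC-ER (-0.30 ± 0.052 SE, edgeR adjusted p = 5.61e-05). It was at 73.1, 83.6 and 75.1 CPM and 100, 91.3 and 97.4 CPM in parental cells (0.32 ± 0.052 SE, edgeR adjusted p = 7.61e-05). That parental rise turned to -0.06 when each library's trend with GC content was removed.

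The V-ATPase acidifies lysosomes, and all 4 of its genes here were lower at 24 h in MYC-ER. ATP6AP1, an accessory subunit, fell most at 8 h, from 116 ± 0.52 to 68.3 ± 2.5 CPM (SD, n = 3; -0.76 ± 0.046 SE, edgeR adjusted p = 2.39e-12). ATP6V1A, the catalytic subunit, was at 134, 142 and 128 CPM at 0 h, 84.2, 90.6 and 82.2 CPM at 8 h and 117, 102 and 106 CPM at 24 h in MYC-ER. The changes were -0.65 ± 0.10 (SE, edgeR adjusted p = 9.24e-06) at 8 h and -0.31 at 24 h. The 24 h call was lost without MYC-ER 0 h replicate 2 or 24 h replicate 2 (edgeR adjusted p = 0.0526 and 0.0573). In parental cells ATP6V1A was at 85.3, 119.7 and 78.2 CPM at 0 h, where replicate 2 was the highest, and 112, 119.6 and 128 CPM at 48 h (0.34 ± 0.10 SE, edgeR adjusted p = 0.0105). This call was lost without parental 0 h replicate 1 or 3 or 48 h replicate 3 (edgeR adjusted p = 0.0527 to 0.0678). ATP6V1H fell slightly (-0.21 at 8 h and -0.28 at 24 h), and ATP6V0D1 did not pass at 8 h (0.12, edgeR adjusted p = 0.13) and fell at 24 h (-0.47).

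For most of the 37 genes the course within MYC-ER was a fall and a rise after it. The group mean was lowest at 24 h for 21 of the 37 genes, at 8 h for 11, at 0 h for 3 (LAMP1, GLA and NPC1) and at 48 h for 2 (CTSL and FUCA2). These lowest times were taken under TMM scaling alone. Neither they nor the later fate of genes lower at 8 or 24 h, given below, were counted over all genes tested. Whether this course is particular to the 37 genes was therefore not tested. Between 8 and 24 h, 17 genes were called lower and 10 higher, where 27.1% and 28.4% of all genes tested were called. Library totals alone gave 9 lower and 15 higher and moved the median of all genes by 0.21. Upper quartile scaling gave 10 and 10, so the direction of this split depends on the scaling. Of the 26 genes lower at 8 h, 9 fell further by 24 h, 9 rose and 8 did not pass. GABARAPL1 (2.03 ± 0.056 SE, edgeR adjusted p = 7.11e-18) and ULK1 (1.88 ± 0.065 SE, edgeR adjusted p = 3.68e-16) rose most, and GPNMB (-2.54 ± 0.11 SE, edgeR adjusted p = 1.13e-14) fell most. Between 24 and 48 h, 27 genes were called higher and 3 lower (GLA, FUCA2 and CTSL), where 28.2% and 25.5% of all genes were called. The median change over this step was 0.49. The largest rises were those of GPNMB (3.04 ± 0.11 SE, edgeR adjusted p = 1.54e-15), SQSTM1 (1.97 ± 0.058 SE, edgeR adjusted p = 8.21e-17) and WIPI1 (1.77 ± 0.11 SE, edgeR adjusted p = 1.62e-11). Of the 31 genes that were lower at 8 or 24 h, 16 were still lower than 0 h at 48 h, 11 did not pass the threshold and 4 (SQSTM1, NEU1, HEXA and MANBA) were higher. The summed level of the 37 genes went from 6821 to 6884 CPM at 0 h to 3954 to 4101 CPM at 8 h, 3351 to 3435 CPM at 24 h and 5769 to 5867 CPM at 48 h.

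Parental cells given 4-OHT had smaller and mostly lower values. At 8 h, 21 of the 37 genes were called lower and 2 higher, against 16% and 15% of all genes tested. At 24 h it was 21 and 4, against 21.7% and 21.2%, and at 48 h 22 and 6, against 20.1% and 20.4%. These comparisons share the parental 0 h libraries. The median changes were -0.24, -0.21 and -0.21. With each library's GC trend removed they were -0.17, -0.14 and -0.07, with 20, 20 and 16 genes lower. Without parental 0 h replicate 2 the counts of lower and higher were 21 and 5, 22 and 7, and 23 and 6. The rises of ATP6V1A at 24 and 48 h were then 0.48 and 0.55 in place of 0.27 and 0.34. Rises of LAMP2 (0.30), SCARB2 (0.26), TPP1 (0.22) and ATP6V1A (0.27) and falls of CTSZ (-0.18) and GLA (-0.24) were also called at 8 h. The 8 h falls of GAA (-0.70), NEU1 (-0.61), ULK1 (-0.56) and TFEB (-0.53) remained called. At 24 h rises of MITF (0.37), TPP1 (0.20) and ASAH1 (0.16) and a fall of CTSZ (-0.20) were called as well. At 48 h the fall of NPC2 (-0.28) was called, and TPP1 was at 0.25 in place of 0.16. Fitted on the 2 groups compared alone, the counts of lower and higher came to 9 and 0 at 8 h, 12 and 3 at 24 h, and 10 and 2 at 48 h. GAA (-0.60 at 8 h), CTSD (-0.54), ULK1 (-0.53), GABARAPL1 (-0.53) and NEU1 (-0.52) had the largest parental falls at 8 h, all within 2-fold. The parental 24 h rise of ATP6V1A (0.27) and the small falls of TFE3 at each time and of CTSZ (-0.26) and ULK1 (-0.20) at 48 h changed sign in fits that removed each library's trend with GC content, or with GC content and length.

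**Figure D3:**
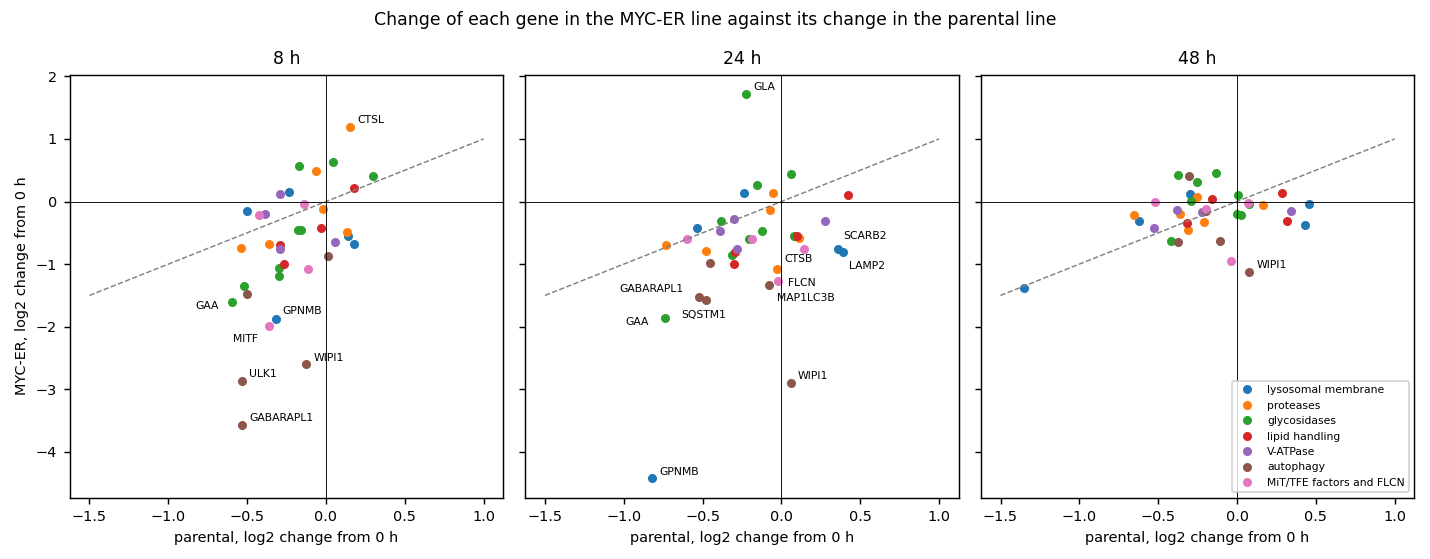
Log2 change from 0 h in MYC-ER (vertical axis) against that in parental cells (horizontal axis, drawn at a larger scale) at 8, 24 and 48 h; each point is 1 of the 37 genes, coloured by role, the dashed line marks equal change, and genes are named where the lines differ by 1 or more. At 8 and 24 h most points lie below the dashed line, GABARAPL1, ULK1 and WIPI1 furthest at 8 h and GPNMB and WIPI1 at 24 h. At 48 h only WIPI1 is named, with a smaller difference than at 8 and 24 h.

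The change in MYC-ER minus the change in parental cells was tested directly. At 8 h it was called negative for 23 of the 37 genes and positive for 7, against 27.8% and 27.3% of all genes tested. At 24 h the counts were 25 and 4, against 26.8% and 27.7%. At 48 h they were 9 and 11, against 21.4% and 23.6%. This split moved with the processing. It was 6 and 17 with library totals alone, 7 and 15 with upper quartile scaling, 20 and 9 with each library's GC trend removed, and 10 and 7 with the GC and length trends removed. The difference was called and at least 2-fold in size for 7 of the 37 genes at 8 h (27.8% of all genes tested), for 11 at 24 h (26.1%) and for 1 at 48 h (14.9%). All 5 autophagy factors had a negative difference at 8 and 24 h, from -3.03 for GABARAPL1 to -0.87 for MAP1LC3B at 8 h. The genes with the largest negative differences at 24 h were GPNMB (-3.60 ± 0.15 SE, edgeR adjusted p = 9.46e-15) and WIPI1 (-2.96 ± 0.16 SE, edgeR adjusted p = 7.92e-13), and the largest positive one was that of GLA (1.94 ± 0.098 SE, edgeR adjusted p = 2.99e-13). Called directions were opposite in the 2 lines for 1 gene at 8 h (LAMP1; 6.42% of all genes tested), for 6 at 24 h (LAMP1, LAMP2, SCARB2, GLA, HEXA and ATP6V1A; 12.8%) and for 6 at 48 h (LAMP2, GLA, HEXA, NEU1, ASAH1 and SQSTM1; 10.5%). Some of these pairs did not hold under other processing. With GC, or GC and length, trends removed, the 24 h parental rises of LAMP2 and SCARB2 did not pass and that of ATP6V1A changed sign. With the GC trend removed, the 48 h parental fall of SQSTM1 did not pass and parental ASAH1 turned negative. The 8 and 24 h LAMP1 calls in MYC-ER were lost when certain single libraries were left out. Both lines were called lower for 17 genes at 8 h (9.56% of all genes tested), for 18 at 24 h (10.3%) and for 11 at 48 h (6.57%).

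Before any 4-OHT the lines already differed. At 0 h MYC-ER cells were called higher than parental cells for 20 of the 37 genes and lower for 12, where 31.6% and 32.7% of all genes tested were called. GPNMB stood furthest apart, 1027 against 53.2 CPM (4.27 ± 0.12 SE, edgeR adjusted p = 3.04e-18). It was followed by GLA, which was lower (-1.94 ± 0.071 SE, edgeR adjusted p = 5.64e-16). Next came GAA (1.51 ± 0.079 SE, edgeR adjusted p = 2.69e-13), GABARAPL1 (1.25 ± 0.053 SE, edgeR adjusted p = 6.49e-15), ULK1 (1.20 ± 0.063 SE, edgeR adjusted p = 2.57e-13), then FLCN (1.12 ± 0.073 SE, edgeR adjusted p = 1.28e-11) and WIPI1 (1.04 ± 0.11 SE, edgeR adjusted p = 2.53e-08). All 5 autophagy factors were higher in MYC-ER at 0 h, by a median of 1.04. In terms of group means, with no test, MYC-ER was below parental for 14 of the 37 genes at 0 h and for 26, 28 and 17 of them at 8, 24 and 48 h. The median ratio of the means went from 1.15 to 0.849, 0.819 and 1.04. At 0 h the median log2 difference was 0.20 for the 37 genes and 0.000 for all genes tested. For the later times no such values of all genes were worked out. TFEB was among the 12 lower ones (-0.17), with overlapping libraries, and was 0.02 when each library's trend with GC content was removed. Without parental 0 h replicate 2 the differences were -0.27 for TFEB and 0.66 for MITF, in place of -0.17 and 0.43. The call of ATP6AP1 was then lost (0.08, edgeR adjusted p = 0.106), while FUCA1 (-0.26), NPC2 (-0.25) and ASAH1 (0.18) were called.

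Another 154 genes of these pathways, in 6 lists, were read in the same fit, and 150 of them were tested. In MYC-ER at 8 h, 75 of the 150 were called lower and 48 higher, at 24 h 89 and 36, and at 48 h 77 and 23, with medians of -0.15, -0.28 and -0.19. Of all genes tested, 35.4% were lower and 32.2% higher at 8 h, 31.2% and 30.4% at 24 h, and 20.7% and 23.4% at 48 h, with medians of -0.10, -0.02 and 0.03. Among 35 further hydrolases 19 fell and 11 rose at 8 h. The glycolipid activator GM2A went from 566 ± 4.6 to 158 ± 5.7 CPM (-1.84) and cathepsin K (CTSK) changed by -2.60. Cathepsin V (CTSV, 1.03, 1.23 and 1.22 CPM at 0 h and 12.4, 9.76 and 10.2 CPM at 8 h) rose by 3.21 and the sulfatase ARSB by 1.22. Among 32 further membrane and transport genes 15 fell and 12 rose. LAPTM5 (-2.03) and the RNA transporter SIDT2 (-1.92) fell most, and the cystine carrier CTNS (10.3 to 40.8 CPM, 1.99) and the channel MCOLN2 (1.79), a paralogue of MCOLN1, rose most. Among 18 further V-ATPase subunits 5 fell and 6 rose. Of those that reached 10 CPM in 1 of the groups, as all genes named from these lists do, ATP6V1E2 (-0.72) and ATP6V0E2 (-0.28, edgeR adjusted p = 0.0517 without MYC-ER 8 h replicate 2) fell most, and ATP6V0A2 (1.42) and ATP6V1D (0.66) rose most.

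Among 24 genes of nutrient sensing at the lysosome 13 fell and 7 rose at 8 h. The sestrins SESN1 (115 to 24.8 CPM, -2.21) and SESN3 (-1.98), which restrain mTORC1, fell most, and RPTOR (0.92) and MTOR (0.55), parts of mTORC1 itself, rose most. Among 31 core autophagy factors 16 fell and 11 rose. RB1CC1 (-1.16), a partner of ULK1, and GABARAP (-1.06), a paralogue of GABARAPL1, fell most, whereas ATG101 (1.18), also of the ULK1 complex, and ATG7 (1.00), the enzyme that starts ATG8 attachment, rose most. Of 10 autophagy receptors 7 fell and 1 rose. RETREG1, a receptor for endoplasmic reticulum, went from 27.97 to 3.54 CPM (-2.98) and NBR1, a relative of SQSTM1, changed by -1.52. BNIP3, a mitochondrial receptor and well-known hypoxia gene, rose by 1.41. So 50% of these 150 genes were called lower at 8 h, beside 70.3% of the 37 genes and 35.4% of all genes tested. Within the ULK1 complex, ULK1 and RB1CC1 fell while ATG101 rose. Among the 3 members of the ATG8 family named here the changes ran from -3.56 (GABARAPL1) to -0.86 (MAP1LC3B). RB1CC1, ATG101 and GABARAP were named for having the largest changes, so these values do not describe the whole complex or family.

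**Figure D4:**
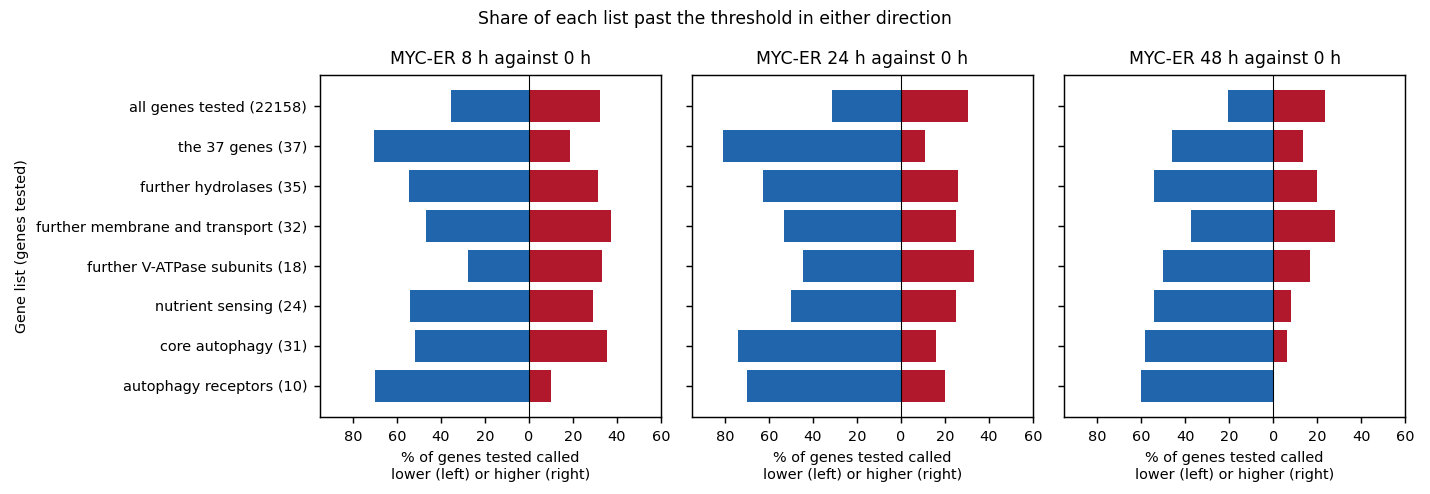
Share of each gene list (rows, with the number of genes tested) called lower (blue, to the left) or higher (red, to the right) in MYC-ER at 8, 24 and 48 h against 0 h, as a percentage of the genes tested. The 37 genes have 70.3%, 81.1% and 45.9% called lower, against 35.4%, 31.2% and 20.7% of all genes, and the further V-ATPase subunits at 8 h are the list with the smallest share lower.

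Genes with and without an E-box in the window were called lower in shares of 57.1% and 68.2% at 8 h. Of the 7 genes with CACGTG in the window 4 were called lower and 1 higher at 8 h, with a median of -0.67. Of the 22 genes with a window but without CACGTG 15 were lower and 6 higher, with a median of -0.65. At 24 h 6 of the 7 were lower and 1 higher, and 17 of the 22 were lower and 2 higher. Of all genes tested, 35.4% were called lower and 32.2% higher at 8 h, and 31.2% and 30.4% at 24 h. Within the 7, GAA (-1.60) and NEU1 (-1.35) fell most at 8 h, CTSD and CTSA changed by -0.75 and -0.67, MCOLN1 and ATP6V0D1 did not pass, and LAMP1, with the most E-boxes, changed by 0.15. The 2 genes with TCACATG, GPNMB and TPP1, fell, with changes of -1.88 and -0.49, and CTSL, with the only GTAAACA, rose.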

How the data were processed

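RNA of 24 libraries (2 lines, 4 times, 3 replicates each) was polyA-selected with a stranded kit and sequenced as 150 bp pairs, 3 libraries to a lane, per the labels' protocols, which do not name the libraries of each lane. The authors deposited 1 table of counts per gene. The submitters' processing notes name Trimmomatic 0.39, STAR, StringTie 2.1.3b and GRCh38, without their roles, so the counts may be estimates derived from coverage; the annotation release and the treatment of strand and of multi-mapping reads are not given in the sources used here. Every count column matched 1 sample's labels.

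Genes were filtered with edgeR 4.0.16 (R 4.3.3, limma 3.58.1) filterByExpr, scaled by TMM and fitted with the quasi-likelihood F test on all 8 groups, which share 1 estimate of the spread (common biological coefficient of variation 0.151). The 12 comparisons were adjusted separately by Benjamini-Hochberg over all 22158 genes. Log2 changes are from the fit (± SE, 95% intervals), and CPM values are means ± SD over 3 libraries. Scripts were tested on simulated data. Library totals differed by up to 1.33-fold, and a count of 0 allows up to 0.0219 CPM, counting error only. No replicates agreed within sampling noise (chi-square per degree of freedom 8.46 to 257.7). The alternatives were DESeq2 1.42.0, 3 other scalings, 2 other filters, GC and length trends removed, fits on the groups compared, the replicate block and each replicate left out.

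The 37 genes, the lists and the tests were chosen with earlier results of these data known. All 37 genes are accounted for. Values per library are given for the 6 with the largest change at 8 h in MYC-ER, the MiT/TFE factors and FLCN, and genes whose direction differs between times or lines; values per library of other genes were added after their values were seen. From each further list the text names the 2 largest rises and 2 largest falls at 8 h past the threshold that reached a mean of 10 CPM in 1 of the groups.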

Additional observations from a re-analysis of the deposited data

Results flagged for a closer look

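For 19 of the gene and time combinations, in 14 genes, the difference in change between the lines (MYC-ER minus parental) passed edgeR's test and was 1 or more in size on the log2 scale. Each combination is listed because the 2 lines differed in their response. Such differences were common: 27.8%, 26.1% and 14.9% of all genes tested had one at 8, 24 and 48 h. At 8 h the differences were -3.03 for GABARAPL1, -2.47 for WIPI1, -2.33 for ULK1, -1.62 for MITF, -1.56 for GPNMB, -1.003 for GAA and 1.04 for CTSL. At 24 h they were -3.60 for GPNMB, -2.96 for WIPI1, -1.26 for MAP1LC3B, -1.25 for FLCN, -1.20 for LAMP2, -1.12 for SCARB2, -1.12 for GAA, -1.09 for SQSTM1, -1.05 for CTSB, -1.005 for GABARAPL1 and 1.94 for GLA. At 48 h WIPI1 alone was left, at -1.20.

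The differences of LAMP2 and SCARB2 at 24 h joined a fall in MYC-ER to a rise in parental cells, and that of GLA a rise to a fall. The parental rises of LAMP2 and SCARB2 did not pass with GC, or GC and length, trends removed. For WIPI1, FLCN, MAP1LC3B and CTSB no parental change was called at 24 h. GPNMB, GAA, GABARAPL1, ULK1, WIPI1, FLCN, LAMP2, SCARB2, SQSTM1, MAP1LC3B, MITF and CTSB also started higher in MYC-ER at 0 h, and GLA and CTSL lower. How far the starting level bears on the differences was not tested.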

How the results depend on the processing

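Under the alternatives run, the counts of the 37 genes called stayed within 1.5 times the reported ones for all 12 comparisons, except in fits on only the groups compared, where parental calls numbered 9 at 8 h (23 reported), 15 at 24 h (25) and 12 at 48 h (28). All genes called fell there too, from 6870 to 1452, 9503 to 4923 and 8978 to 3274. Leaving out 1 library at a time gave 32 to 36, 33 to 37 and 19 to 27 calls in MYC-ER at 8, 24 and 48 h, 23 to 31 between 8 and 24 h and 28 to 32 between 24 and 48 h. It gave 20 to 26, 24 to 29 and 24 to 29 in parental cells at 8, 24 and 48 h, 30 to 34 between the lines at 0 h, and 29 to 33, 29 to 31 and 17 to 25 for the difference between the lines at 8, 24 and 48 h. The replicate numbers did not pair the libraries (correlation of deviations of libraries with the same number within a line -0.046 to 0.059). With the replicate block the MYC-ER counts were 34, 34 and 21 and the parental ones 22, 25 and 28.

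Some small changes of single genes turned sign, and the cause was not tested. Each of them passed the threshold in the reported fit, in the alternative fit, or in both. With library totals alone, FUCA2 (0.12), TFEB (0.15) and TFE3 (0.048) were higher in MYC-ER at 48 h, and LAMP1 (0.19), GLB1 (0.19), FUCA2 (0.009), ASAH1 (0.079), ATP6V1H (0.13) and FLCN (0.011) from 8 to 24 h; this scaling also moved the median of all genes by 0.16 and 0.21. With the GC trend removed, parental TFE3 was 0.071, 0.10 and 0.069 at 8, 24 and 48 h. Parental CTSZ was 0.19 and ASAH1 -0.28 at 24 h, and MANBA -0.25, ASAH1 -0.061 and ULK1 0.16 at 48 h. Between the lines at 0 h ASAH1 was -0.16 and TFEB 0.024. The difference between the lines was -0.27 for CTSD and -0.18 for TFEB at 24 h, and at 48 h -0.028 for MCOLN1, -0.14 for CTSA, -0.18 for ATP6V0D1, -0.14 for ATP6AP1, -0.30 for ULK1 and -0.21 for TFE3.

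With GC and length trends removed, LAMP1 was 0.13 from 8 to 24 h in MYC-ER. Parental values were LAMP2 -0.10, CTSZ 0.19 and TFE3 0.045 at 8 h, CTSL 0.12, CTSZ 0.30, ASAH1 -0.41, ATP6V1A -0.049 and TFE3 0.046 at 24 h, and CTSZ 0.12, MANBA -0.47, ASAH1 -0.19 and TFE3 0.026 at 48 h. Between the lines at 0 h ASAH1 was -0.30 and TFEB 0.10. The difference between the lines was -0.17 for TFE3 at 8 h, -0.21 for MCOLN1, -0.35 for CTSD, 0.18 for MANBA and -0.23 for TFEB at 24 h, and -0.083 for MCOLN1 and -0.14 for CTSZ at 48 h. The lowest count of any of the 37 genes in a library was 268, so none was at the limit set by depth.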
